A study of Danio rerio with 7 samples.

Results

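Translation factors are the proteins that start and extend protein synthesis on the ribosome. Their genes were taken here as every row of the transcript tables whose zebrafish symbol begins with eif or eef, in capitals or not. The rule found 67 of the 16394 genes measured, all 67 with at least 1 transcript in the wells used, and 45 of them passed the expression filter of the tests. Together they gave 78605 transcripts, 2.33% of all transcripts in those wells.

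The study profiled single cells from the ventricles of adult zebrafish 7 days after cryoinjury, a freezing injury of the heart wall. The mutant group, 4 plates, carried the genotype Tg(nppa:mCitrine);hmga1a-/-, and the wild-type group, 3 plates, carried Tg(nppa:mCitrine);hmga1a+/+. Both groups thus carried the reporter, in which the promoter of the natriuretic peptide gene nppa drives a fluorescent protein, and both groups were injured; 12 hearts were used per genotype. Cells were sorted on high reporter signal, 1 per well of a 384-well plate, and hmga1a, the gene that was changed, encodes a protein of the chromatin. What was altered in hmga1a is not stated in the labels, which also carry no replicate numbers and tie no plate to an animal. A p-value here therefore weighs a difference against plate-to-plate spread, part or all of which may be technical. The sort is given as mCitrine in the series text and as mCherry in a protocol, and the tables hold 1536 mutant and 1152 wild-type wells, more than the cells stated in the series text.

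Initiation factors bring the small ribosomal subunit, the initiator tRNA and the capped end of the mRNA together and find the start codon. Elongation factors then carry each amino acid to the ribosome and move the ribosome along. In vertebrates, the cap-binding step is held back by the 4E-BP proteins under control of the kinase mTOR, and the tRNA-delivery step is held back by kinases that phosphorylate eIF2. Many elongation factor mRNAs in mammals share a control element at their capped end with the mRNAs of ribosomal proteins.

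Wells were used where the count, leaving out spike-in RNA and genes of the mitochondrial genome, reached 1000 transcripts, which left 534 mutant and 499 wild-type wells. The plates held 276945 to 542532 transcripts in mutant and 260496 to 753855 in wild-type plates. The sequencing run of a plate was taken from the flow cell code in the name under which its counts were deposited. By that code, mutant plates 1 and 2 and wild-type plate 1 were on 1 flow cell (run 1). Mutant plates 3 and 4 and wild-type plates 2 and 3 were on another (run 2). Levels are given as CPM, counts brought to the same total in every plate; CPM of single genes are further TMM-scaled, while sums over genes and values for hmga1a and cell type markers are not and are called unscaled CPM. The transcript of hmga1a itself was at 47.0, 50.6, 9.22 and 34.2 unscaled CPM in mutant plates 1 to 4, against 111.4, 118.1 and 101.1 unscaled CPM in wild-type plates 1 to 3, so it was lower in each mutant plate but not absent. Cardiomyocyte markers (7 genes matched of 8 listed, none at 0) summed to 97491 to 139715 unscaled CPM in mutant and 135904 to 168707 unscaled CPM in wild-type plates, and the cells were labelled as cardiomyocytes. The 10 macrophage and leukocyte markers summed to 0.0 to 1582 unscaled CPM in mutant plates, highest in mutant plate 1, against 132 to 204 unscaled CPM in wild-type plates, and their part in the results was not tested. Tests were therefore repeated on the 979 wells in which MYL7, a myosin light chain gene of heart muscle, gave at least 1% of transcripts. They are called MYL7 wells here. Macrophage and leukocyte markers there summed to 0.0 to 337 unscaled CPM in mutant and 8.48 to 137 unscaled CPM in wild-type plates. Cardiomyocyte markers there summed to 111030 to 144749 unscaled CPM in mutant and 149218 to 175196 unscaled CPM in wild-type plates. These ranges did not overlap, and the part of this difference in the results was not tested.

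Elongation factors made up most of the translation factor transcripts. The 7 elongation factor genes (eEF1A, the eEF1B complex and eEF2) gave 65.2% of them, the 45 initiation factor genes 23.0%, the 2 eIF5A genes 7.93% and the 4 genes of 4E-BP proteins 3.59%. Each molecule is counted once at its 3' end in this assay, so levels of different genes were compared without a length correction. The most abundant was eef1a1l1 (ENSDARG00000020850), an eEF1A gene, which brings aminoacyl-tRNA to the ribosome and was detected in 1011 of the 1033 wells used. The other eEF1A gene in the tables, EEF1A1, had 2 transcripts in all, and reads shared by near-identical copies may have been split between them in a way that the sources used here do not give.

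**Figure D1:**
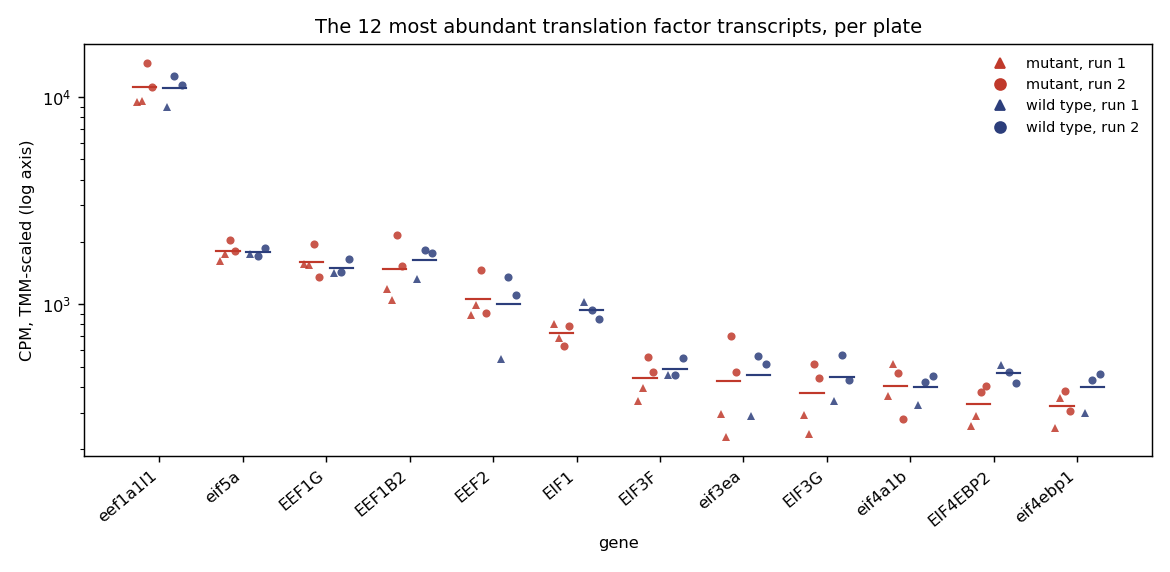
TMM-scaled CPM (log axis) of the 12 most abundant translation factor genes, 1 point per plate, with mutant plates in red on the left and wild-type plates in blue on the right of each gene, triangles for run 1, circles for run 2 and a line at the mean. eef1a1l1 averaged 11204 CPM in mutant and 11001 CPM in wild-type plates, well above the next gene, eif5a.

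None of the 45 genes tested was called higher or lower in mutant than in wild-type plates. In edgeR's quasi-likelihood test with run as a covariate, 0 of the 45 tested genes had a Benjamini-Hochberg adjusted p under 0.05, where 0.5% of the 2798 genes tested were called, 0.25% in each direction. DESeq2 and limma-voom also called 0 of the 45, where they called 1.82% and 0.822% of all genes. At an unadjusted p under 0.05 there were 3 translation factor genes (EIF1, EIF4EBP2 and EIF4G1), beside 12.8% of all genes. The smallest adjusted p was 0.236 (edgeR). Fold changes were positive for 26 genes and negative for 19, and their median was 0.04 on the log2 scale, beside 0.03 for all genes.

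The tests had limited reach in these data. In counts simulated on the same 2798 genes, the edgeR fit called 24.4% of genes raised 2-fold and 87.2% of genes raised 4-fold. It called 13.6% of genes lowered to 0.5-fold and 3.6% of genes raised 1.5-fold. Each simulated gene had its mean level over all plates and its spread in the data, with no difference by run, unlike the real counts. Depth and the number of plates were not varied. Over genes of all levels, a difference of 2-fold or less was thus often not called. The changed genes were drawn from all 2798, so these shares do not give the reach for the abundant factors. The median SE was 0.27 for the 45 genes, beside 0.40 for all genes. In MYL7 wells, 0 of the 45 genes were called by edgeR, where 1.63% of the 2510 genes tested there were, (0.717% higher and 0.916% lower), and the same 3 genes had an unadjusted p under 0.05, beside 15.1% of all genes.

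**Figure D2:**
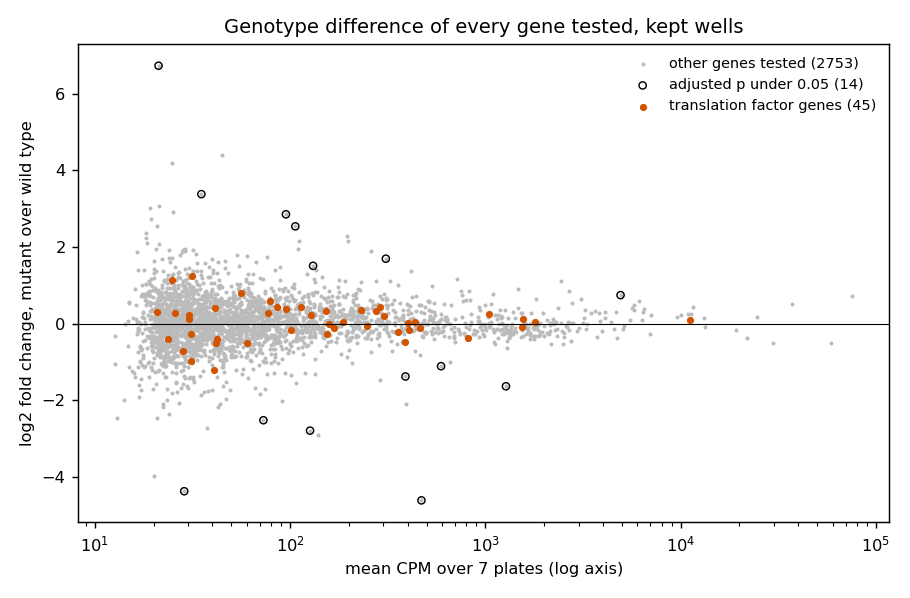
Log2 fold change, mutant over wild type, of every gene tested against its mean CPM over the 7 plates (log axis), with the 45 translation factor genes in orange and the 14 genes with an adjusted p under 0.05 ringed. The orange points lie on both sides of 0, between -1.21 and 1.24, and none is ringed.

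Among initiation factors, EIF1 (ENSDARG00000012688) was the most abundant. It encodes eIF1, which keeps the scanning ribosome from starting at a wrong codon. EIF1 had 806, 686, 632 and 790 CPM in mutant plates 1 to 4, against 1024, 937 and 849 CPM in wild-type plates 1 to 3. Each mutant plate was below each wild-type plate. This was so for 2 of the 45 genes, EIF1 and EIF4EBP2, where the plates of the genotypes did not overlap for 10.2% of all genes. The log2 fold change of EIF1 was -0.38 (SE 0.14, edgeR adjusted p = 0.284), and the differences within runs were -0.46 in run 1 and -0.34 in run 2. EIF1 passed the threshold only when each well was thinned to 1000 UMIs, which gives every well the same weight. Its edgeR adjusted p was then 0.0447 in all wells used and 0.0379 in MYL7 wells. In all wells used, 47 of all genes tested were called after thinning, against 14 without it. Over the 20 alternatives in all wells used the adjusted p of EIF1 ran from 0.0447 to 0.666 and its sign was negative in 20. The summed transcripts of the 4 eIF1 and eIF1A genes were 968, 892, 754 and 981 unscaled CPM in mutant plates, against 1180, 1132 and 1081 unscaled CPM in wild-type plates. The sums did not overlap between genotypes, but as a mean of shares per well they did, with 1039 unscaled CPM in mutant plate 1 and 1038 unscaled CPM in wild-type plate 2.

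The eIF2 complex carries the initiator tRNA and eIF2B recharges it with GTP. The sum of the 4 eIF2 genes averaged 508 ± 95.0 unscaled CPM in mutant and 535 ± 137 unscaled CPM in wild-type plates (SD, n = 4 and 3), and of its 3 tested genes 1 was positive and 2 were negative. The single tested eIF2B gene, EIF2B2, had 39.9, 29.1, 98.2 and 27.9 CPM in mutant plates 1 to 4, against 65.5, 100.02 and 58.7 CPM in wild-type plates 1 to 3. Mutant plate 3 stood among the wild-type plates while the other mutant plates were below them, and the log2 fold change was -0.50 (SE 0.43, edgeR adjusted p = 0.673). With 1 plate left out it ran from -1.19, without mutant plate 3, to -0.22, without mutant plate 4. The 3 eIF2 kinase genes in the tables, eif2ak1, eif2ak2 and EIF2AK3, which encode the kinases known in mammals as HRI, PKR and PERK, had 3, 31 and 16 transcripts in all wells used and were too low to test.

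The eIF3 complex is the large scaffold that joins the small ribosomal subunit to the mRNA. Its 14 genes summed to 2660 ± 584 unscaled CPM in mutant and 2735 ± 513 unscaled CPM in wild-type plates (SD, n = 4 and 3). Of its 13 tested genes 9 had a positive and 4 a negative fold change, between -0.17 and 0.80. The value of 0.80 was that of EIF3H (SE 0.41, edgeR adjusted p = 0.470), which had 56.4, 43.6, 73.7 and 83.7 CPM in mutant plates 1 to 4, against 7.70, 62.0 and 63.3 CPM in wild-type plates 1 to 3. Wild-type plate 1 alone was low, and in run 2 the difference was 0.32. Without that plate the fold change of EIF3H was 0.31. Wild-type plate 1 is the only wild-type plate of run 1. Here and below, a fold change without it thus rests on run 2 and is no check separate from the run 2 difference. No abundant subunit passed the test: EIF3F averaged 441 ± 92.8 CPM in mutant and 489 ± 53.8 CPM in wild-type plates, and EIF3G 372 ± 129 CPM in mutant and 447 ± 113 CPM in wild-type plates, both within the spread between plates. EIF3J (ENSDARG00000012603), a loosely bound subunit, averaged 91.6 ± 8.92 CPM in mutant and 60.9 ± 28.5 CPM in wild-type plates, with a log2 fold change of 0.60 (SE 0.34, edgeR adjusted p = 0.498). Wild-type plate 2, at 93.0 CPM, lay among the mutant plates of EIF3J, and the log2 difference was 1.29 within run 1 and 0.33 within run 2. Its fold change was 0.26 without wild-type plate 1 and 0.98 without wild-type plate 2. A further gene listed as EIF3J (ENSDARG00000053370) averaged 32.3 ± 16.5 CPM in mutant and 28.0 ± 6.12 CPM in wild-type plates. Its log2 fold change was 0.13 (SE 0.54, edgeR adjusted p = 0.961).

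The eIF4 factors recognise the mRNA cap and unwind the mRNA. Most of their transcripts came from eif4a1b, a gene of the eIF4A helicase, which averaged 405 ± 106 CPM in mutant and 399 ± 64.0 CPM in wild-type plates. EIF4A2, a second helicase gene, was at 16.4, 18.2, 24.6 and 25.1 CPM in mutant plates 1 to 4, against 23.1, 49.3 and 40.7 CPM in wild-type plates 1 to 3 (log2 fold change -0.72, SE 0.42, edgeR adjusted p = 0.504). EIF4G1, the scaffold that bridges the cap-binding protein and the helicase, had the lowest unadjusted p of the 45 genes. It had 39.9, 47.2, 8.19 and 19.5 CPM in mutant plates 1 to 4, against 115.5, 32.4 and 22.6 CPM in wild-type plates 1 to 3. Levels in run 1 were above those in run 2 for EIF4G1, and the mutant plates were lower within each run, by -1.39 on the log2 scale in run 1 and -1.03 in run 2. The log2 fold change was -1.21 (SE 0.41, edgeR adjusted p = 0.236), on 109 transcripts in 51 wells. EIF4G2 (ENSDARG00000020377), a gene of the related scaffold that does not bind the cap-binding protein, had -0.51 (SE 0.35, edgeR adjusted p = 0.575). A further gene listed as EIF4G2 (ENSDARG00000057167) was on the positive side, with 0.37 (SE 0.30, edgeR adjusted p = 0.656). It had 285 transcripts, against 132 for ENSDARG00000020377.

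The cap-binding protein itself, eIF4E, was encoded by several genes of low level, each with 71 to 95 transcripts over all wells used for those tested. The gene eif4e1c, an eIF4E class of fish that has been studied in zebrafish heart regeneration, had 44.6, 58.1, 8.19 and 5.58 CPM in mutant plates 1 to 4, against 34.7, 38.0 and 27.1 CPM in wild-type plates 1 to 3. The mutant plates of run 1 lay above all wild-type plates and those of run 2 below all of them. The log2 difference was 0.54 within run 1 and -2.09 within run 2, the pooled fold change was -0.97 (SE 0.61, edgeR adjusted p = 0.543) and -2.19 without wild-type plate 1, and the interaction of genotype and run had a log2 coefficient of -2.72 (unadjusted p = 0.0163, edgeR adjusted p = 0.659).

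EIF4E3 and eif4eb had positive fold changes that did not pass the test. EIF4E3, an atypical eIF4E, had 18.8, 76.3, 32.7 and 41.9 CPM in mutant plates 1 to 4, against 11.6, 15.5 and 22.6 CPM in wild-type plates 1 to 3 (1.24 on the log2 scale with an SE of 0.57, edgeR adjusted p = 0.403). The gene eif4eb had 21.1, 50.8, 30.7 and 27.9 CPM in mutant plates, against 3.85, 22.5 and 16.6 CPM in wild-type plates (1.13, SE 0.61, edgeR adjusted p = 0.482). Wild-type plate 1 was the lowest for eif4eb: the log2 difference was 2.80 within run 1 and 0.57 within run 2, and without that plate the fold change was 0.57. For each of the pair mutant plate 1 lay within the range of the wild-type plates. EIF4E2, whose product is known as a translational repressor, averaged 22.1 ± 14.2 CPM in mutant and 19.3 ± 7.07 CPM in wild-type plates.

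The 4E-BP proteins bind eIF4E and keep it from the scaffold. EIF4EBP2 (ENSDARG00000031819) had 258, 291, 377 and 402 CPM in mutant plates 1 to 4, against 512, 472 and 416 CPM in wild-type plates 1 to 3. The mutant plates were all below the wild-type plates, the nearest being mutant plate 4 and wild-type plate 3. The log2 fold change was -0.47 (SE 0.18, edgeR adjusted p = 0.309), and the difference was -0.90 within run 1 and -0.19 within run 2. Without wild-type plate 1, the highest, the fold change of EIF4EBP2 was -0.20. The gene eif4ebp1 had 254, 352, 383 and 307 CPM in mutant plates 1 to 4, against 300.4, 431 and 459 CPM in wild-type plates 1 to 3 (-0.23 on the log2 scale with an SE of 0.19, edgeR adjusted p = 0.660), and its plates overlapped. EIF4EBP3 (ENSDARG00000041607) was on the positive side, at 129, 160, 94.1 and 137 CPM in mutant plates, against 77.0, 93.0 and 108 CPM in wild-type plates (0.43, SE 0.27, edgeR adjusted p = 0.539), and without wild-type plate 1 its fold change was 0.17.

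Summed, the 4 genes of 4E-BP proteins gave 587, 809, 772 and 797 unscaled CPM in mutant plates 1 to 4, against 902, 943 and 945 unscaled CPM in wild-type plates 1 to 3. The sum was lower in each mutant plate than in each wild-type plate, on average by 189 unscaled CPM and by 204 and 160 unscaled CPM within runs 1 and 2. As a mean of shares per well the genotypes overlapped, with 953 unscaled CPM in mutant plate 2 and 907 unscaled CPM in wild-type plate 2. The sum was one of 14 families looked at, and no test was made on it.

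**Figure D3:**
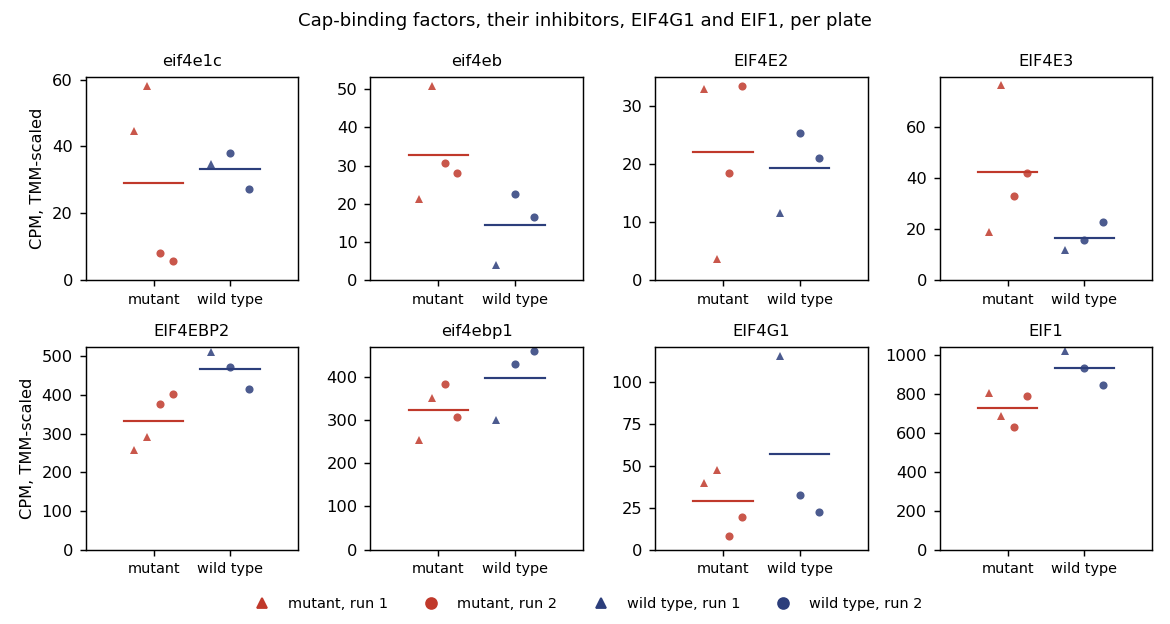
TMM-scaled CPM per plate of 4 eIF4E genes, 2 genes of 4E-BP proteins, EIF4G1 and EIF1, with mutant plates in red on the left, wild-type plates in blue on the right, triangles for run 1, circles for run 2 and a line at the mean. The plates of the genotypes are apart for EIF4EBP2 and EIF1, while for eif4e1c the mutant plates of run 1 (44.6 and 58.1 CPM) and run 2 (8.19 and 5.58 CPM) lie on opposite sides of the wild-type plates.

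The factors eIF5 and eIF5B act when the start codon has been found and the large subunit joins. Their 2 genes summed to 118 ± 45.7 unscaled CPM in mutant and 108 ± 50.7 unscaled CPM in wild-type plates (SD, n = 4 and 3). The factor eIF5A, which carries the modified amino acid hypusine and frees ribosomes stalled on difficult sequences, was abundant: eif5a had 1616, 1751, 2053 and 1809 CPM in mutant plates 1 to 4, against 1748, 1714 and 1880 CPM in wild-type plates 1 to 3. The plates overlapped, and the log2 fold change was 0.04 (SE 0.12, edgeR adjusted p = 0.935). Its paralog EIF5A2 averaged 141 ± 46.1 CPM in mutant and 171 ± 29.2 CPM in wild-type plates (-0.27, SE 0.29, edgeR adjusted p = 0.732).

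No elongation factor gene was called by genotype, where 0.5% of all genes were. The plates of the genotypes overlapped for each of the 5 tested, where they did not overlap for 10.2% of all genes. For eef1a1l1 the values were 9462, 9541, 14650 and 11162 CPM in mutant plates 1 to 4, against 8977, 12645 and 11381 CPM in wild-type plates 1 to 3. The plates of run 2 were high and those of run 1 low in both genotypes, and the log2 fold change by genotype was 0.10 (SE 0.13, edgeR adjusted p = 0.818). EEF2, whose product moves the ribosome by one codon, had 883, 995, 1467 and 907 CPM in mutant plates 1 to 4, against 543, 1359 and 1108 CPM in wild-type plates 1 to 3. Wild-type plate 1 was the lowest, the log2 difference was 0.79 within run 1 and -0.09 within run 2, and the pooled fold change was 0.25 (SE 0.22, edgeR adjusted p = 0.676) and -0.065 without wild-type plate 1. In run 1 alone, which has 1 wild-type plate whose spread is taken from the mutant plates, the fold change of EEF2 in MYL7 wells was 0.83. EEF2 passed the threshold there and not in all wells used, a call that 1 wild-type plate cannot bear out.

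The eEF1B complex reloads eEF1A with GTP. Its genes EEF1G and EEF1B2 averaged 1602 ± 256 and 1476 ± 491 CPM in mutant plates, against 1503 ± 134 and 1643 ± 278 CPM in wild-type plates (SD, n = 4 and 3), with edgeR adjusted p = 0.813 and 0.876. In sum the 7 elongation factor genes gave 12049, 13271, 18501 and 14356 unscaled CPM in mutant plates 1 to 4, against 12332, 16523 and 15525 unscaled CPM in wild-type plates 1 to 3. The kinase gene EEF2K, whose product holds eEF2 back, had 28.2, 7.26, 30.7 and 58.6 CPM in mutant plates 1 to 4, against 23.1, 39.4 and 25.6 CPM in wild-type plates 1 to 3, which overlapped (0.22, SE 0.52, edgeR adjusted p = 0.907).

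The 22 genes that were too low to test had 1 to 62 transcripts each over all wells used, 7 of them under 10. Among them were paralogs of tested genes, such as eif4a1a with 1 transcript beside eif4a1b with 1304, EIF3E with 33 beside eif3ea with 1516, and eef2a.1 with 11 beside EEF2 with 3534. The gene listed as EIF4E had 8 transcripts, fewer than each of the 4 tested eIF4E genes.

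**Figure D4:**
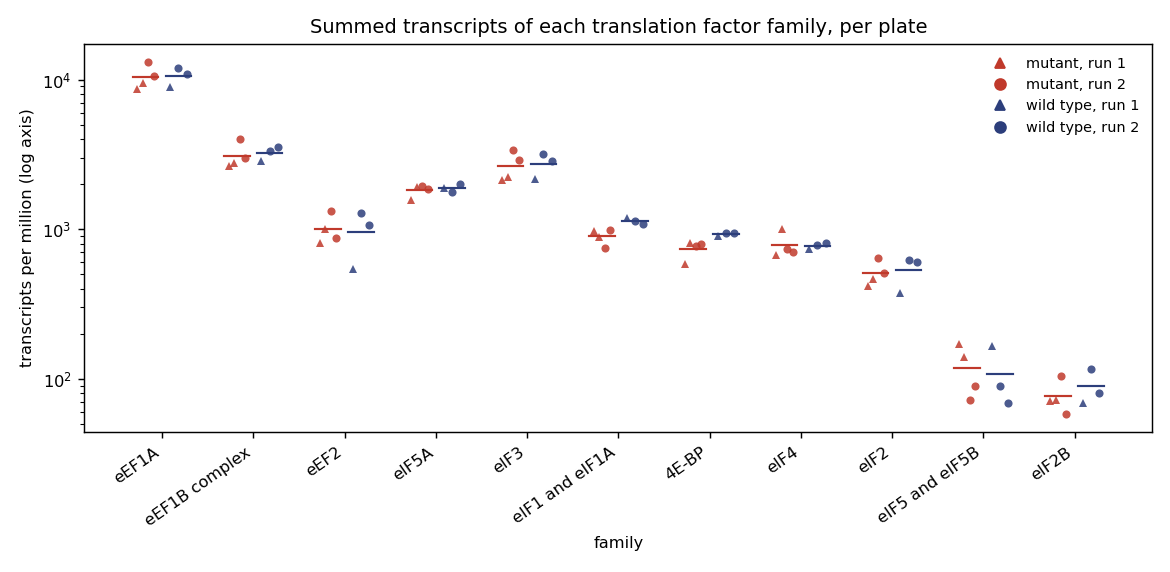
Summed transcripts in unscaled CPM (log axis) of 11 translation factor families, 1 point per plate, with mutant plates in red on the left, wild-type plates in blue on the right, triangles for run 1, circles for run 2 and a line at the mean. The genotypes overlap in 9 of the 11 families and are apart for eIF1 with eIF1A and for the 4E-BP proteins.

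Several translation factor transcripts differed between the sequencing runs, in plates of both genotypes. In the same edgeR fit, 5 of the 45 genes were called by run, where 4.65% of all genes were: 4 were higher in run 2 (1.86% of all genes) and 1 was lower (2.79% of all genes). These 5 were named after their values were seen. At an unadjusted p under 0.05 there were 17 of the 45, beside 21.5% of all genes. Fold changes, run 2 over run 1, were positive for 33 of the 45 genes with a median of 0.32 on the log2 scale, beside 0.00 over all genes.

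The 4 genes higher in run 2 encode 2 eIF3 subunits and 2 eEF1B subunits. EIF3D (ENSDARG00000021257), an eIF3 subunit that can bind caps, had 129 and 128 CPM in mutant plates 3 and 4 and 113 and 81.3 CPM in wild-type plates 2 and 3, all of run 2, against 70.5 and 39.9 CPM in mutant plates 1 and 2 and 38.5 CPM in wild-type plate 1, all of run 1. Its log2 fold change by run was 1.23 (SE 0.30, edgeR adjusted p = 0.0437). The eIF3 subunit gene eif3ea (ENSDARG00000090697) had 704 and 469 CPM in mutant and 561 and 515 CPM in wild-type plates of run 2, against 296 and 229 CPM in mutant and 289 CPM in wild-type plates of run 1. The 2 runs did not overlap for either gene, and for eif3ea the log2 fold change was 1.05 (SE 0.20, edgeR adjusted p = 0.0199).

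In the eEF1B complex, EEF1D averaged 285 ± 22.1 CPM in run 2 and 157 ± 46.2 CPM in run 1 (SD, n = 4 and 3), a log2 fold change of 0.95 (SE 0.21, edgeR adjusted p = 0.0303). EEF1B2 averaged 1820 ± 258 CPM in run 2 and 1186 ± 139 CPM in run 1 (0.61, SE 0.15, edgeR adjusted p = 0.0473). EEF1G, the third subunit, was not called, with a log2 fold change of 0.11 (SE 0.15, edgeR adjusted p = 0.740). EIF4G1 was the gene lower in run 2, at 20.7 ± 9.97 CPM in run 2 and 67.6 ± 41.7 CPM in run 1 (-1.87, SE 0.41, edgeR adjusted p = 0.0303).

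Other translation factor genes had positive fold changes by run that missed the threshold. For eef1a1l1 the average was 12460 ± 1600 CPM in run 2 and 9327 ± 306 CPM in run 1 (0.43, SE 0.13, edgeR adjusted p = 0.0845), and EIF3G had 0.73 (SE 0.18, edgeR adjusted p = 0.0507). Of the 13 eIF3 genes tested 12 had a positive fold change by run, as did all 3 eEF1B genes and all 3 tested eIF2 genes. The rise was not shared by all families: 5 of the 11 tested eIF4 genes and 2 of the 3 tested 4E-BP genes were positive. EIF5 and eif5b had negative fold changes by run, -0.97 and -0.88. Each plate of run 2 was above each plate of run 1 for 11 of the 45 genes, where this held for 9.44% of all genes; in either direction the runs did not overlap for 13 of the 45, where this held for 19.4% of all genes. Summed, elongation factors averaged 16226 unscaled CPM in run 2 and 12550 unscaled CPM in run 1. In MYL7 wells the sums were closer, at 16968 unscaled CPM in run 2 and 13983 unscaled CPM in run 1. No test by run was made in MYL7 wells. The part of wells with under 1% MYL7 in the differences by run was not tested.

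The calls by run rest on few plates. Of the translation factor genes, edgeR called 0 without wild-type plate 1 or without wild-type plate 2. Without mutant plate 1 or without mutant plate 3 it called 1. It called 2 without wild-type plate 3, 3 without mutant plate 2 and 6 without mutant plate 4. Calls over all genes fell too, from 130 with all plates to 18 and 32 without wild-type plates 1 and 2. They numbered 52 and 55 without mutant plates 1 and 3, and at most 124 with any 1 plate left out. With all plates, DESeq2 called 6 translation factor genes and limma-voom 7. The shares of all genes that these tools called by run are not given here, so those counts have no background beside them. The share of mitochondrially encoded transcripts was 3.80% to 4.93% in plates of run 2 and 5.55% to 7.33% in plates of run 1, its part in the result was not tested, and the flow cell cannot be told apart from anything else that differed between those plates. The interaction of genotype and run was called by edgeR for 0 of the 45 genes and 0.0% of all genes, with 6 of the 45 and 7.01% of all genes at an unadjusted p under 0.05.

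**Figure D5:**
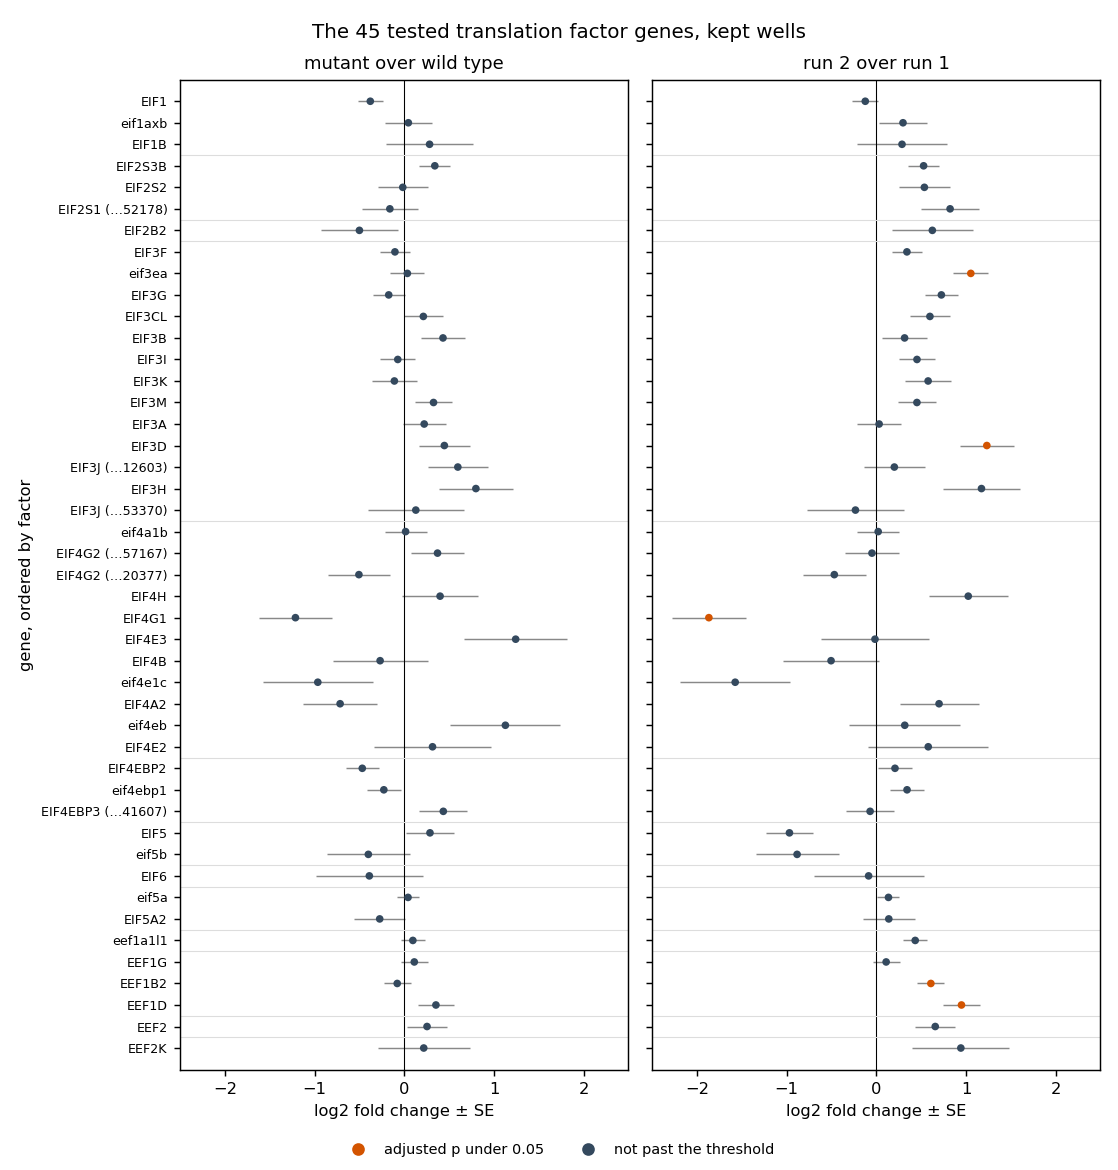
Log2 fold change with its standard error (SE) of each of the 45 tested translation factor genes, mutant over wild type on the left and run 2 over run 1 on the right, ordered by factor, with genes past the adjusted threshold in orange. No gene is orange on the left; EIF3D, eif3ea, EEF1D, EEF1B2 (higher in run 2) and EIF4G1 (lower in run 2) are orange on the right.

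Genes that work beside the translation factors were not called by genotype either. The 38 listed genes included those for release factors, poly(A)-binding proteins, mTOR signalling and the stress response to eIF2 phosphorylation. The list also held genes outside these classes, such as RACK1, BTF3, naca, TPT1, DENR and MKNK2. Of the 38, 29 listed names matched 31 genes, and 20 were tested. In edgeR, 0 of the 20 were called by genotype, where 0.5% of all genes were. At an unadjusted p under 0.05 there were 4 of the 20, beside 12.8% of all genes. The smallest adjusted p was 0.179, for PABPC4, a poly(A)-binding protein gene, with a log2 fold change of 0.59. MKNK2 (ENSDARG00000015164), also among the 4, had 0.68 (SE 0.22, edgeR adjusted p = 0.218). DDIT3 and ppp1r15a, known targets of the eIF2 pathway, had positive fold changes that missed the threshold, 1.78 and 1.49 (edgeR adjusted p = 0.230 and 0.218). In MYL7 wells that of DDIT3 was 0.97 (edgeR adjusted p = 0.459) and that of ppp1r15a 1.32 (edgeR adjusted p = 0.233). The gene atf4b, for a transcription factor made when eIF2 is phosphorylated, was on the negative side, with -0.34 in all wells used (edgeR adjusted p = 0.795) and -0.61 in MYL7 wells (edgeR adjusted p = 0.534). By run, 3 of the 20 were called, beside 4.65% of all genes. PABPC4 and TPT1 were called higher in run 2 (1.39 each, edgeR adjusted p = 0.00592 and 0.0318), and atf4b was called lower in run 2 (-2.29, edgeR adjusted p = 0.0191).

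Across wells of a plate, the share of elongation factor transcripts went with that of ribosomal proteins. The median well held 134, 147, 189 and 148 elongation factor transcripts per 10000 in mutant plates 1 to 4, against 132, 169 and 162 per 10000 in wild-type plates 1 to 3. Spearman's rho between the elongation factor share and the ribosomal protein share of a well ran from 0.40 to 0.61 in mutant and from 0.53 to 0.60 in wild-type plates, over 85 to 202 wells a plate. The shares have a common total in each well, and the wells of a plate have a common library, so rho is a description. The wells with under 1% MYL7, where both shares were lower, were included. No rho for MYL7 wells alone is given here, and the part of the low-MYL7 wells in rho was not tested. Between the shares of elongation and initiation factors rho was 0.27 to 0.41 over the 7 plates. Between the shares of initiation factors and ribosomal proteins it ran from 0.17 in wild-type plate 1 to 0.51 in mutant plate 1. Between the elongation factor share and the total of the well it was between -0.08 and 0.09.

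In wells with little MYL7, translation factors made up a low share of the transcripts. In the 54 used wells with under 1% MYL7, 5 to 13 a plate, elongation factors gave 208 to 6004 unscaled CPM, against 13229 to 19172 unscaled CPM in the MYL7 wells of the same plates. The low-MYL7 wells were below the MYL7 wells in each of the 7 plates, also for initiation factors (260.2 to 3353, against 4864 to 6157 unscaled CPM) and for eef1a1l1, eif5a and EEF2 singly. The drop was not particular to translation factors. Ribosomal protein genes were also lower in each of the 7 plates, at 2550 to 51534 unscaled CPM, against 90744 to 115469 unscaled CPM in the MYL7 wells. Mitochondrially encoded transcripts gave 187009 to 485301 unscaled CPM in the low-MYL7 wells, against 23743 to 48569 unscaled CPM in the MYL7 wells, and their part in the lower shares was not tested. Of the 1033 wells used, 45 had between 0.5% and 2% MYL7.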

How the data were processed

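CEL-seq2 was used, with spike-in RNA and unique molecular identifiers (UMIs), per the labels' protocols. The submitters' processing notes name BWA 0.6.2; genome build, annotation and the counting of multi-mapped reads: not given in the sources used here. Per the values, the authors deposited an estimated count for each gene in each well, a UMI number corrected for saturation: with 4096 barcodes assumed, a whole number of UMIs gave 100% of the 857630 nonzero values with a tolerance of 0.0051. The tables hold gene identifiers, and names came from a name table in which 13087 of 16394 genes had a symbol, many in human style; of 85 identifiers with an eif or eef symbol 67 stood in the tables. No value column was left unused. All 384 well labels are shared between plates because they are well numbers.

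Here the estimates of wells with at least 1000 transcripts were summed per plate, rounded to integers and fitted in edgeR 4.0.16 (R 4.3.3; TMM factors, filterByExpr, quasi-likelihood F test, run and genotype in the model) over all genes, with Benjamini-Hochberg adjustment at 0.05. Cells are not replicates, so plates are. Plates were numbered in order of deposit within a genotype, so equal numbers pair no plates. Fold changes are mutant over wild type (or run 2 over run 1) on the log2 scale, with an SE derived from the F value. TMM scaling was applied to CPM of single genes and not to family sums. Differences within runs are of mean log2(CPM + 1). DESeq2 1.42.0 and limma 3.58.1 were alternatives, beside other scalings, filters, well sets and leaving out each plate. The fit was checked on simulated counts. Doublets were not called because cells were sorted 1 per well.

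The text names members called by genotype, the 12 most abundant, the 6 with the largest change each way, and tested members of the eIF2 kinase, 4E-BP, eIF4E and eIF5A groups; other names were chosen after their values were seen. The members and lists were chosen with earlier results of these data known. The tests by run and of the interaction were added after seeing the data.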

Additional observations from a re-analysis of the deposited data

Results flagged for a closer look

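Of 42 groups of 4 plates looked at for a plate far from the others, 2 held one; chance alone gives about 1 in 20 groups. EIF2B2, a gene of the factor that recharges eIF2, was at 98.2 CPM in mutant plate 3, while mutant plates 1, 2 and 4 held 27.9 to 39.9 CPM. The summed 4E-BP transcripts were at 587 unscaled CPM in mutant plate 1, while mutant plates 2 to 4 held 772 to 809 unscaled CPM; without that plate the mutant sum still lay below the wild-type sum, by 138 unscaled CPM on average.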

How the results depend on the processing

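No paired analysis was possible because the labels carry no replicate numbers. Translation factor genes called by genotype stayed at 0 in both well sets under every alternative set of choices except 1 gene in wells thinned to 1000 UMIs (EIF1, all wells and MYL7 wells) and 1 in run 1 alone, MYL7 wells (EEF2). It was 0 with any 1 plate left out. Genes called by genotype in all wells used (14) numbered 51 in DESeq2, 23 in limma-voom, 83 without expression filter, 9 without the run covariate, 8 and 29 in runs 1 and 2 alone, 47 in thinned wells, and 7 to 20 with 1 plate left out. In MYL7 wells (41) they numbered 71 at 2% MYL7, 64 without filter, 13 without the run covariate, 77 in run 1 alone, and 19 to 46 with 1 plate left out. By run, added after seeing the data, members called (5) numbered 9 without filter, 3 in thinned wells and 0 to 6 with 1 plate left out, and genes called (130) numbered 315, 45 and 18 to 124. Genes called for the interaction (0) numbered 28 without filter and 0 to 3 with 1 plate left out.

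Family sums in unscaled CPM, mutant minus wild type, with 1 plate left out, ran from -2414 to 351 for all members, -1568 to 616 for elongation, -671 to -69.6 for initiation factors, -121 to 26.3 for eIF5A and -211 to -138 for 4E-BP.

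For the genes below, some near 0 and some not, the log2 fold change changed sign in all wells used as follows, with its reported value in brackets. For eif4a1b (0.014) it was -0.0052 in DESeq2, -0.0045 with RLE factors, -0.043 in limma-voom, -0.048 without TMM, -0.083 without filter, -0.019 in observed UMI numbers, -0.25 in run 2 alone and -0.034 without mitochondrial and ribosomal protein genes. For eif3ea (0.034) it was -0.032 without TMM, -0.072 without filter, -0.10 without the run covariate, -0.15 in run 1 alone and -0.016 without mitochondrial and ribosomal protein genes. For eif5a (0.041) it was -0.019 without TMM, -0.065 without filter, -0.076 in run 1 alone, -0.061 in wells with 500 transcripts and -0.012 without mitochondrial and ribosomal protein genes. It was 0.0013 in run 2 alone for EEF1B2 (-0.079), -0.020 in thinned wells for EEF1G (0.11), -0.080 in run 2 alone for EEF2 (0.25), 0.025 in thinned wells for EIF5A2 (-0.27), -0.0082 without filter for eef1a1l1 (0.095) and 0.53 in run 1 alone for eif4e1c (-0.97). With 1 plate left out the ranges were -0.24 to 0.016 for EEF1B2, -0.032 to 0.21 for EEF1G, -0.065 to 0.47 for EEF2, -0.22 to 0.012 for EIF3F, -0.010 to 0.15 for eef1a1l1, -0.16 to 0.12 for eif3ea, -0.23 to 0.22 for eif4a1b and -0.025 to 0.090 for eif5a.

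In MYL7 wells the changes of sign were these. For eif3ea (0.0030) it was -0.020 in DESeq2, -0.021 with RLE factors, -0.031 at 0.5% MYL7, -0.035 at 2% MYL7, -0.019 without TMM, -0.068 without filter, -0.13 without the run covariate, -0.16 in run 1 alone and -0.036 without mitochondrial and ribosomal protein genes. For eif4a1b (-0.019) it was 0.0051 without the run covariate, 0.44 in run 1 alone, 0.19 in thinned wells and 0.025 in wells with 500 transcripts. For eif5a (0.043) it was -0.0030 at 0.5% MYL7, -0.015 at 2% MYL7, -0.030 without filter and -0.056 in wells with 500 transcripts. It was 0.0089 in run 2 alone for EEF1B2 (-0.075), -0.024 in thinned wells for EEF1G (0.10), -0.11 in run 2 alone for EEF2 (0.22), -0.0065 in limma-voom for EIF4E2 (0.28), 0.041 in run 1 alone for eif4e1c (-1.16) and 0.064 in run 1 alone for eif4ebp1 (-0.25). With 1 plate left out the ranges were -0.23 to 0.0038 for EEF1B2, -0.036 to 0.21 for EEF1G, -0.11 to 0.45 for EEF2, -0.013 to 0.15 for eef1a1l1, -0.20 to 0.11 for eif3ea, -0.27 to 0.20 for eif4a1b and -0.029 to 0.084 for eif5a. None of the values with a changed sign passed the threshold, and the cause was not tested.

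With 3 and 4 plates a genotype, genes of low level were poorly resolved, and the 22 untested members had 1 to 62 transcripts each. The SE and p-values rest on the spread between plates, and the labels do not say whether plates hold cells of different fish. Leaving out wild-type plate 1 leaves run 1 with no wild-type plate.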
